A study of Rattus norvegicus with 6 samples.

Results

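The ADAM and ADAMTS metalloproteases and their ADAMTS-like relatives were examined in rat corneas 7 days after a corneal allograft. The members are all genes of the count table whose symbol begins with Adam, Adamts, Adamtsl or Adamdec followed by a digit, which gave 42 of 17771 listed genes: 19 ADAM genes (with Adamdec1 counted among them), 18 ADAMTS genes and 5 ADAMTSL genes. Recipients in both groups were Wistar rats that carried a cornea from SD (Sprague-Dawley) donors, so the controls were grafted as well. The resveratrol group (3 libraries) was injected intraperitoneally each day with resveratrol, a plant polyphenol, and the control group (3 libraries) with saline. The labels give no dose, sex or age, nor whether a library is 1 cornea or a pool. They also do not name the animals, and any p-value therefore covers the spread of these 6 libraries alone, which could be technical. Both groups are bulk tissue, in which fewer cells of a type and less RNA per cell cannot be told apart.

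ADAMs are mostly membrane-anchored proteases that cut the outer part of other surface proteins loose, a process called shedding, and so release growth factors, cytokines and adhesion molecules. ADAMTS proteases are secreted, bind the extracellular matrix through thrombospondin repeats, and cut matrix proteins such as the lecticans (versican, aggrecan) and the amino-terminal propeptides of fibrillar collagens. ADAMTS-like proteins share the matrix-binding part but have no protease domain. Tissue inhibitor Timp3 is known as an inhibitor of ADAM17, ADAMTS4 and ADAMTS5.

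The sequences below are the start regions of 4 of the 6 members with the most stable calls, described further on; the table used here holds none for the other two, Adamts15 and Adamts16. Each runs 5′ to 3′ on the gene's strand, from 250 bases before to 50 bases after the start that RefSeq gives in build GRCr8, and capitals mark matches to the motifs searched. They are shown because these genes had lower levels together in resveratrol corneas while their start regions differ in base composition.
Adam8, chr1:204218273-204218572, minus strand: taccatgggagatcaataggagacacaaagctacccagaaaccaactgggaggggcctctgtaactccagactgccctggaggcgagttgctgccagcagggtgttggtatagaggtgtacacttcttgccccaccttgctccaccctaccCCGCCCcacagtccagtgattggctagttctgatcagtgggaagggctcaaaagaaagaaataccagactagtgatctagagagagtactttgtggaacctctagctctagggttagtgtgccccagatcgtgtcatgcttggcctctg
Adamts7, chr8:99584279-99584578, plus strand: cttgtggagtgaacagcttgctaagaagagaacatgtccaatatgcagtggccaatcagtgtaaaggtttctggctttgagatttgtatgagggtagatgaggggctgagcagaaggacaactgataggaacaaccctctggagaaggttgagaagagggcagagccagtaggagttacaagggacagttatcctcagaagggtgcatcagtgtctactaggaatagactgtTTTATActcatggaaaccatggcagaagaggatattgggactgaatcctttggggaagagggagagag
Adamts12, chr2:61759737-61760036, plus strand: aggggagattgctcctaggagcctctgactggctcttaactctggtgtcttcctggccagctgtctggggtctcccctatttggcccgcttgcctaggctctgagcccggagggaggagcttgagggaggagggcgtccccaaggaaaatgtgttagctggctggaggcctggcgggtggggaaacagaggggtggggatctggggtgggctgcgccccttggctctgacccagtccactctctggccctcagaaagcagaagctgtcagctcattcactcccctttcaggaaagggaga
Adamts14, chr20:29762633-29762932, minus strand: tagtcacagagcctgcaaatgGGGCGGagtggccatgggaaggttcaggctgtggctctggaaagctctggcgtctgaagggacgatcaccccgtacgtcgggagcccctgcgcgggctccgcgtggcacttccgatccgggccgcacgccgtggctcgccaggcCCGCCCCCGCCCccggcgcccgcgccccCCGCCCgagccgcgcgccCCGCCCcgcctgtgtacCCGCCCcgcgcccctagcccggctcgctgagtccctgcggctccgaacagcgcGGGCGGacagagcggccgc
The Adamts14 region held 41 CpG dinucleotides at 76% G and C, and 7 copies of the GC box GGGCGG in either orientation, 6 of them before the start. The Adamts7 region held 0 CpG dinucleotides at 46.7% G and C, with 1 TATAAA on the opposite strand 18 bases before the start. Adam8 (3 CpG) and Adamts12 (5 CpG) lay near the low end, Adam8 with 1 GC box and Adamts12 with no match, where the median over 33469 rat start regions of this length was 7 CpG. Both strands were searched for the GC box GGGCGG, the TATA box TATAAA, the AP-1 motif TGANTCA, the ETS motif CCGGAAG and the TEAD motif GGAATG, and no match to one motif overlapped a match to another in the regions shown. GGGCGG occurred in 33.1% of all start regions, TATAAA in 14.2%, TGANTCA in 7.33%, CCGGAAG in 8.75% and GGAATG in 14.2%. Of 24 tested members with a start region, 17 held GGGCGG, 5 TATAAA, 2 CCGGAAG (Adam15 and Adam17), 1 TGANTCA (Adam19) and 1 GGAATG (Adamtsl4). A member with several start regions, such as Adamtsl1, was counted if any of them matched. The percentages above count each start region by itself, so the units differ. A match describes the letters and is not evidence of a bound factor.

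Each library held 35068936 to 37460756 gene counts, of which the 42 members took 0.108% to 0.115% in resveratrol and 0.127% to 0.145% in control corneas. Corneal epithelium markers summed to 71604 to 81062 CPM (counts scaled to a common library size with TMM factors) in resveratrol and 71791 to 80701 CPM in control libraries, and lens and retina markers to at most 7.46 CPM in any library, as the cornea label has it. The description of replicate 1 ends in Sep in either group, that of the remaining 4 libraries in Oct, and the labels do not say what this marks. On the first principal component of all tested genes control 3 lay nearest to the resveratrol libraries. CPM values are given in the order of replicates 1, 2 and 3 and are used between libraries. Levels of different genes are compared as FPKM, which divides by gene length. The exception is the partner lists, whose most abundant genes were picked by mean CPM. Log2 fold changes are resveratrol minus control and come from edgeR unless another fit is named. The moderated standard error beside them comes from a separate limma fit on log2 CPM, so the fold change and its error come from different models.

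Membrane-bound ADAMs had the highest levels over both groups. By mean FPKM over the 6 libraries, Adam15 (54.1), Adam8 (45.4), Adam10 (34.4), Adam17 (28.4) and Adam9 (20.8) led, and these 5 genes held 65.8% of the summed FPKM of the 42 members. The highest secreted protease was Adamts2 at 20.1 FPKM. It averaged 17.4 FPKM in resveratrol and 22.7 FPKM in control corneas, while Adam9 averaged 20.9 FPKM in resveratrol and 20.7 FPKM in control corneas, so that in control corneas Adamts2 ranked above Adam9. It was followed by Adamts1 at 6.83 FPKM and Adamts10 at 5.12 FPKM, and the 3 higher ADAMTSL genes, Adamtsl4, Adamtsl1 and Adamtsl5, stood at 6.12, 6.06 and 5.9 FPKM. In all, 7 members reached 10 FPKM, 20 reached 1 FPKM and 34 reached 0.1 FPKM. The summed FPKM of the members was 253, 246 and 259.7 in resveratrol corneas, against 303, 319 and 287 in control corneas, so the groups did not overlap. Within that sum the share of Adam8 was 13.2 to 14.2% in resveratrol and 15.7 to 19.9% in control corneas, and the share of Adam17 was 11.6 to 12.7% in resveratrol and 8.14 to 9.2% in control corneas. The shares of the ADAM class as a whole overlapped, at 73 to 76.9% in resveratrol and 73.2 to 75% in control corneas.

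**Figure D1:**
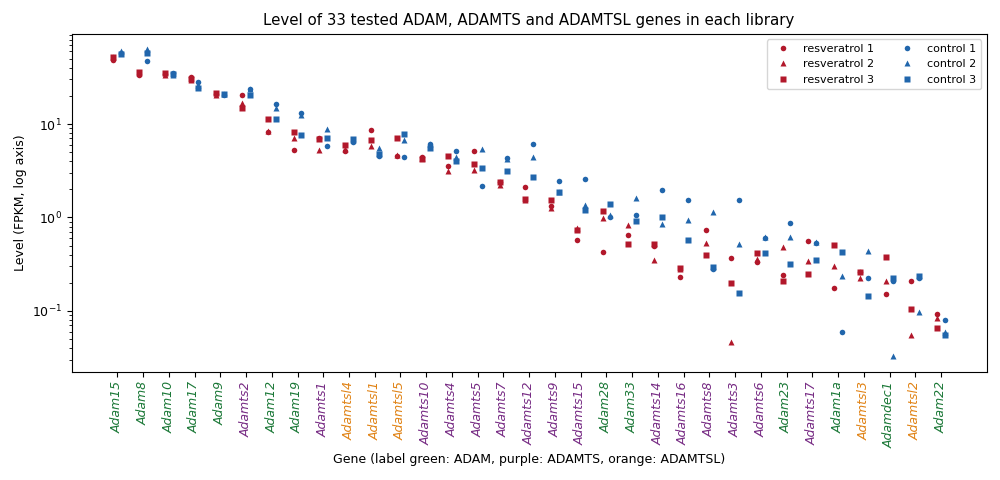
FPKM (log axis) of the 33 tested members in each library, ordered by mean level, with resveratrol libraries in red left of control libraries in blue. Membrane-bound ADAMs (green labels) take the first 5 places, from Adam15 at a mean of 54.1 FPKM to Adam9 at 20.8 FPKM.

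A filter on low counts left 33 members to test: 13 ADAM, 15 ADAMTS and 5 ADAMTSL genes. It asked for about 0.27 CPM in at least 3 libraries; 29 of the 33 were over that in all 6 libraries, and 0 were over it in 1 group only. The 9 genes left out had 3 to 55 counts summed over the libraries. Adam4, the highest, had 11, 9 and 14 counts in resveratrol corneas, against 7, 8 and 6 counts in control corneas. These few counts were higher in every resveratrol library than in any control library. They were not tested in edgeR, and DESeq2 gave Adam4 an adjusted p of 0.647. Adam4, Adam4l1, Adam18, Adam30 and Adam32 belong to a group known mainly from testis and sperm, as does Adam1a, which was tested. Adam11 is a neural ADAM without a protease site. Adamts13, which cuts von Willebrand factor, had 0 counts in each resveratrol library and 1, 0 and 2 counts in control libraries, Adamts20 had 0 counts in each resveratrol library and 3, 0 and 0 counts in control libraries, and Adamts18 had 12 counts in all. A count of 0 allows up to 3 counts, or about 0.0805 CPM in resveratrol library 2, so no difference in Adamts13 or Adamts20 was detectable at this depth.

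Among the 33 tested members lower mean levels in resveratrol corneas prevailed. Means were lower for 27 members and higher for 6, where 51.2% of the 14213 tested genes had a lower mean. The median log2 fold change was -0.56 over 15 ADAMTS genes (14 lower, 1 higher), -0.20 over 13 ADAM genes (9 lower, 4 higher) and -0.23 over 5 ADAMTSL genes (4 lower, 1 higher), beside -0.0080 over all tested genes. With a stricter filter, at least 1 CPM in 3 libraries, the ADAM median was -0.55 and the ADAMTS median -0.57, so the gap between these classes rests on the low genes Adam1a, Adam22 and Adamdec1, which had higher means and did not pass that filter. The difference between the classes was not tested.

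With Benjamini-Hochberg adjustment over all 14213 tested genes, the quasi-likelihood test of edgeR called 0 of the 33 members at 0.05 and 0% of all genes, and the smallest adjusted p of a member in edgeR was 0.10. Without adjustment, 15 members were lower and 2 higher at a p under 0.05 in edgeR, against 11.7% of all tested genes lower and 7.84% higher. By class these were 9 of 15 ADAMTS, 5 of 13 ADAM and 1 of 5 ADAMTSL genes lower, with Adam17 and Adamtsl1 the 2 higher. DESeq2, run as an alternative, called 9 of the 35 members to which it gave an adjusted p, all lower, against 4.64% of all genes lower and 2.23% higher. CPM ranges of the groups did not overlap for 13 tested members lower in resveratrol and 2 higher, against 14.3% and 12.2% of all tested genes. The 9 members called by DESeq2 were Adam8, Adam12, Adamts7, Adamts9, Adamts10, Adamts12, Adamts14, Adamts15 and Adamts16. Leaving out each library in turn, DESeq2 kept 6 of these in all 6 fits: Adam8, Adamts7, Adamts12, Adamts14, Adamts15 and Adamts16. The number of members called was 8, 7 and 10 when resveratrol 1, 2 or 3 was left out, and 7, 6 and 11 when control 1, 2 or 3 was. The count of 11 included Adam19 and Adamts3, the count of 10 Adam19, and the count of 8 Adamts2. In the Oct libraries alone it called 5, Adam8, Adamts7, Adamts12, Adamts15 and Adamts16. In edgeR 1 member, Adamts16, passed without control 3 (edgeR adjusted p = 0.047).

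**Figure D2:**
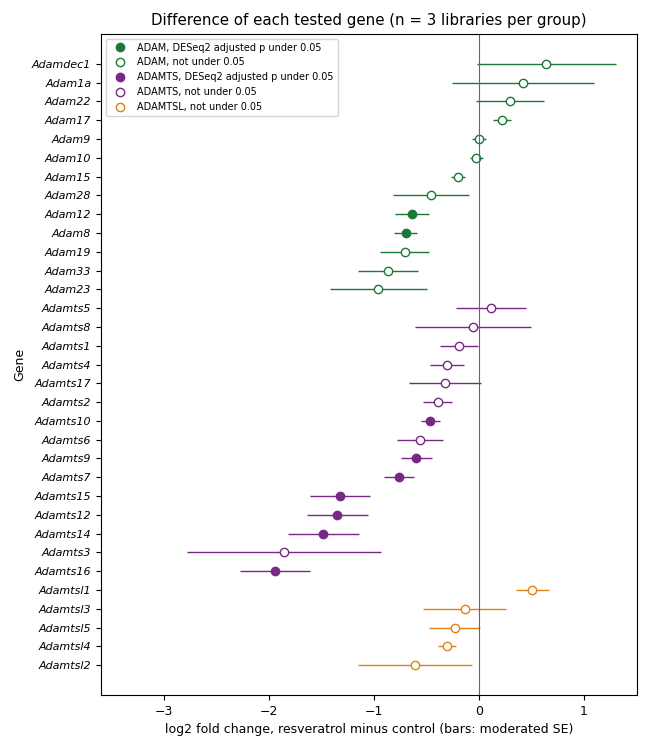
Log2 fold change (resveratrol minus control) of each tested member, grouped by class and ordered by size, with bars of 1 moderated standard error; filled points have a DESeq2 adjusted p under 0.05. Filled points are 2 ADAM and 7 ADAMTS genes, all left of 0, from Adamts10 at -0.46 to Adamts16 at -1.95.

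The procollagen amino-propeptidases, Adamts2, Adamts3 and Adamts14, all had lower means in resveratrol corneas. Adamts14 stood at 2.62, 1.83 and 2.66 CPM in resveratrol corneas, against 10.3, 4.41 and 5.23 CPM in control corneas. The groups did not overlap, and control 1 was far above the other control libraries. Its log2 fold change was -1.49 ± 0.34 (edgeR adjusted p = 0.125, DESeq2 adjusted p = 0.00328), and in the Oct libraries alone the DESeq2 adjusted p was 0.0817. Adamts2, by far the most abundant of the 3, stood at 101, 81.9 and 71.3 CPM in resveratrol corneas, against 117, 117 and 99.1 CPM in control corneas. The highest resveratrol library lay above the lowest control library, so the groups overlapped slightly (-0.39 ± 0.14, edgeR adjusted p = 0.195). Adamts3, which also activates the lymphatic growth factor Vegfc together with the cofactor Ccbe1, stood at 1.72, 0.215 and 0.895 CPM in resveratrol corneas, against 7.16, 2.42 and 0.724 CPM in control corneas. It varied about 10-fold within control and overlapped between the groups (-1.86 ± 0.93, edgeR adjusted p = 0.309). Leaving out 1 library moved this log2 fold change between -2.61 (without resveratrol 1) and -0.73 (without control 1).

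The substrates of these enzymes had lower means too. Of 6 fibrillar procollagen genes 5 were tested (Col2a1 had 7 counts). DESeq2 called all 5 lower, against 4.64% of all genes, and edgeR called 0 after adjustment. Col1a1 stood at 4539, 2692 and 3546 CPM in resveratrol corneas, against 9239, 6857 and 5028 CPM in control corneas. In Col1a1 control 1 was highest and control 3 lowest among the controls, the order also seen in Adamts12 and Adamts16 below. The FPKM ratio of Adamts2 to Col1a1 was 0.0265, 0.0364 and 0.024 in resveratrol corneas, against 0.0152, 0.0204 and 0.0235 in control corneas. This ratio, which does not depend on library scaling, was higher in all 3 resveratrol libraries than in any control library, narrowly so against control 3 (exact permutation test, two-sided, p = 0.1, the smallest that 3 against 3 libraries allow). The ratio of Adamts14 to Col1a1 overlapped between the groups (exact permutation p = 0.30). Altogether 14 ratios were computed, chosen after the values were seen, as were the genes set against the members; 5 did not overlap between the groups, and each of these had a Benjamini-Hochberg adjusted p of 0.28. Vegfc (-0.49 ± 0.17) and Ccbe1 (-0.73 ± 0.24) had non-overlapping lower levels in resveratrol corneas, without passing in either tool (DESeq2 adjusted p = 0.118 and 0.0581).

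Adamts7 and Adamts12, a closely related pair known to cut the cartilage matrix protein COMP, were both lower by DESeq2. Adamts12 stood at 22.9, 15.9 and 16.1 CPM in resveratrol corneas, against 64.8, 46.6 and 28.5 CPM in control corneas. The lowest control library lay above every resveratrol library, with a wide spread within control. Its log2 fold change of -1.35 ± 0.29 corresponds to a control level 2.55 times that in resveratrol (edgeR adjusted p = 0.117, DESeq2 adjusted p = 3.72e-04). Adamts7 stood at 15, 13.8 and 14.4 CPM in resveratrol corneas, against 27.2, 26.6 and 19.6 CPM in control corneas. The 3 resveratrol libraries were within a narrow range well below the controls (-0.77 ± 0.14, edgeR adjusted p = 0.10, DESeq2 adjusted p = 5.34e-04). The substrate gene Comp itself, at 45 counts in all, did not pass the low-count filter.

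Adamts16 had the largest fold difference of the members called by DESeq2. It stood at 3.11, 3.65 and 3.66 CPM in resveratrol corneas, against 20.5, 12.3 and 7.53 CPM in control corneas. All resveratrol libraries lay close together and below the lowest control, while control 1 was more than double control 3. Its log2 fold change was -1.95 ± 0.33, a control level 3.86 times that in resveratrol (edgeR adjusted p = 0.10, DESeq2 adjusted p = 9.23e-06). Its level was low, at 0.641 FPKM on average. Its close relative Adamts18 was not tested.

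The lectican-cleaving ADAMTS genes were divided. Adamts15 stood at 5.52, 7.33 and 6.74 CPM in resveratrol corneas, against 24.7, 13 and 11.4 CPM in control corneas. It did not overlap between the groups, and control 1 was again about double the other controls (-1.32 ± 0.29, edgeR adjusted p = 0.121, DESeq2 adjusted p = 0.00141). Adamts9, a versican-cleaving enzyme, stood at 10.9, 10.2 and 12.2 CPM in resveratrol corneas, against 20.1, 15.3 and 15 CPM in control corneas. The groups did not overlap (-0.60 ± 0.15, DESeq2 adjusted p = 0.0197), but the DESeq2 adjusted p became 0.105 or 0.14 when resveratrol 1 or 2 was left out, and 0.103 or 0.053 when control 1 or 2 was. Adamts4, an aggrecanase, differed by -0.31 ± 0.17 (edgeR adjusted p = 0.35). It stood at 12, 10.3 and 14.8 CPM in resveratrol corneas, against 17.4, 14.9 and 13.6 CPM in control corneas, so resveratrol 3 lay within the control range.

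Adamts1, Adamts5 and Adamts8 overlapped between the groups and moved with single libraries. Adamts5, the other main aggrecanase, stood at 20.1, 12.2 and 14 CPM in resveratrol corneas, against 8.45, 21.1 and 13.2 CPM in control corneas. Control 1 was its lowest library and control 2 its highest. Adamts1 stood at 31.4, 23 and 29.2 CPM in resveratrol corneas, against 25.5, 39.2 and 30.8 CPM in control corneas, and Adamts8 at 2.51, 1.77 and 1.32 CPM in resveratrol corneas, against 0.948, 3.89 and 0.992 CPM in control corneas. In both, control 2 was again the highest library. Adamts1 and Adamts5 are direct neighbours among the protein-coding genes of the RefSeq rat table, as are Adamts15 and Adamts8, although Adamts15 and Adamts8 ranked the libraries differently. The sign of the Adamts5 difference (0.11 ± 0.33) turned to -0.39 in the Oct libraries alone, and that of Adamts8 (-0.060 ± 0.55) to 0.94 without control 2. The FPKM ratio of Adamts4 to Adamts5 was 0.687, 0.976 and 1.22 in resveratrol corneas, against 2.38, 0.813 and 1.2 in control corneas, so it overlapped. The lectican genes themselves had lower means for 4 of 4 tested, of which Vcan, encoding versican, was at 50.5, 26.7 and 48.3 CPM in resveratrol corneas, against 96.7, 105 and 48.8 CPM in control corneas (-1.0 ± 0.34, DESeq2 adjusted p = 0.0319). Control 3 lay inside the resveratrol range.

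Of the ADAMTS genes linked to fibrillin microfibrils, Adamts10 stood at 19.3, 18.1 and 17.7 CPM in resveratrol corneas, against 26.3, 26.1 and 23.5 CPM in control corneas. The groups were tight and did not overlap (-0.46 ± 0.095, edgeR adjusted p = 0.108, DESeq2 adjusted p = 0.00382). The DESeq2 adjusted p became 0.052 without resveratrol 2 and 0.0785 without control 2. Adamts6 stood at 2.4, 2.5 and 2.87 CPM in resveratrol corneas, against 4.2, 4.38 and 2.89 CPM in control corneas, with the lowest control just above the highest resveratrol library (-0.56 ± 0.22, edgeR adjusted p = 0.24, DESeq2 adjusted p = 0.206). Adamts17 stood at 4.15, 2.47 and 1.76 CPM in resveratrol corneas, against 3.88, 4.03 and 2.57 CPM in control corneas and overlapped (-0.32 ± 0.34). Of 9 microfibril genes that work beside them DESeq2 called 1 lower, Mfap2 (-0.97 ± 0.23). Over all genes DESeq2 called 4.64% lower, and edgeR called 0 of the 9 after adjustment. Lox and Ltbp4, the most abundant, differed by 0.020 ± 0.20 and 0.089 ± 0.13. Fbn1, encoding fibrillin 1, differed by -0.35 ± 0.23 and overlapped between the groups, and the FPKM ratio of Adamts10 to Fbn1 overlapped as well.

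**Figure D3:**
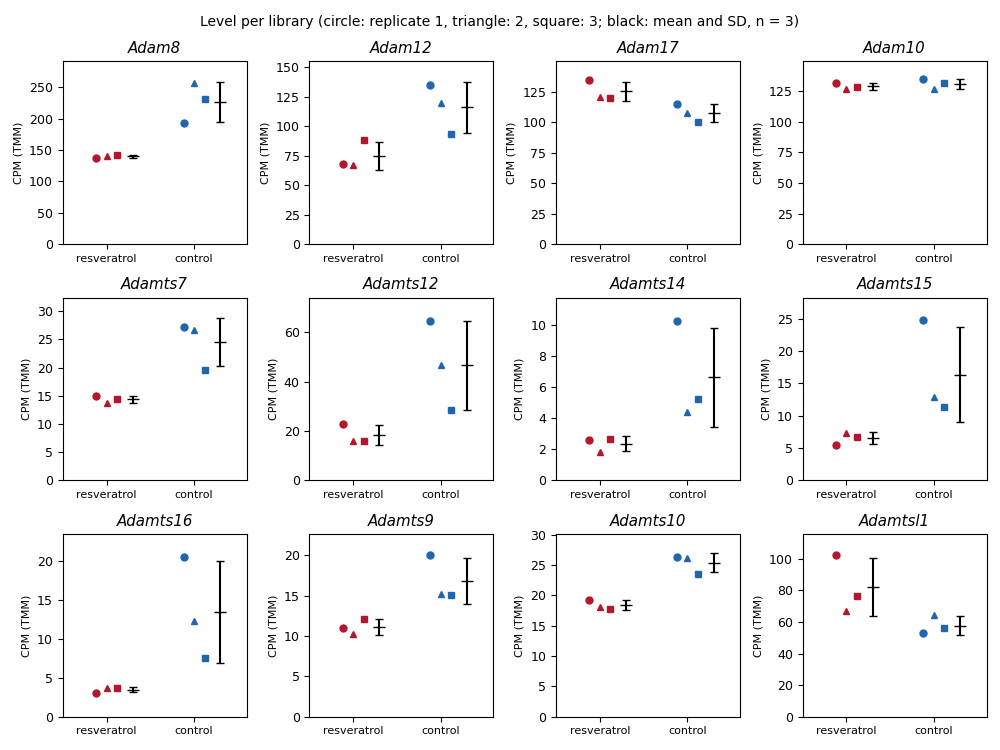
TMM-scaled CPM of 12 members in each library (circle, triangle and square for replicates 1, 2 and 3; black, mean and SD of 3 libraries), each axis starting at 0. Resveratrol points (red, left) form tight groups below the control points (blue, right) in Adam8 and Adamts7, control 1 stands high in Adamts14, Adamts15 and Adamts16, Adam10 is level, and Adam17 and Adamtsl1 are higher in resveratrol corneas.

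Adam8, a protease of leukocytes that also occurs in other activated cells, was the second most abundant member and had the smallest spread relative to its mean of the 9 members called by DESeq2 within resveratrol. It stood at 138, 140.1 and 142 CPM in resveratrol corneas, against 193, 256 and 231 CPM in control corneas. Every control library was above every resveratrol library, and the 3 resveratrol values lay within 4 CPM of each other. The log2 fold change was -0.70 ± 0.11 (edgeR adjusted p = 0.10, DESeq2 adjusted p = 3.98e-05). Macrophage markers summed to 333, 328 and 486 CPM in resveratrol and 838, 520.0 and 416 CPM in control corneas, with 8 of 10 members lower in mean and none at 0, so resveratrol 3 lay above control 3. Of 6 listed neutrophil markers Mpo was absent from the count table. The other 5 summed to 207, 201 and 168 CPM in resveratrol and 225, 593 and 338 CPM in control corneas. Of these 4 were tested, all lower in mean, and Elane had 9 counts over all libraries. The part of either cell type in the Adam8 difference was not tested. The FPKM ratio of Adam8 to Cd68, a lysosomal protein of macrophages, was 1.27, 1.76 and 1.12 in resveratrol corneas, against 0.855, 1.49 and 1.28 in control corneas. It overlapped between the groups (exact permutation p = 0.60), whereas the ratio of Adam8 to Adam15, at 0.697, 0.676 and 0.694 in resveratrol corneas, against 0.83, 1.06 and 1.03 in control corneas, did not (exact permutation p = 0.1, the smallest possible).

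The meltrins Adam12 and Adam19, membrane ADAMs of mesenchymal and activated stromal cells, were lower in mean. Adam12 stood at 68.1, 67.4 and 88.6 CPM in resveratrol corneas, against 135, 119.6 and 93.1 CPM in control corneas. The groups were separated by a small gap between resveratrol 3 and control 3 (-0.63 ± 0.16, edgeR adjusted p = 0.131, DESeq2 adjusted p = 0.0169). Its DESeq2 adjusted p became 0.109 or 0.124 when resveratrol 1 or 2 was left out, and 0.11 or 0.116 when control 1 or 2 was. Adam19 stood at 35.6, 45.8 and 52.7 CPM in resveratrol corneas, against 86.8, 82.5 and 49.9 CPM in control corneas. Control 3 lay below resveratrol 3, so the groups overlapped (-0.71 ± 0.23, DESeq2 adjusted p = 0.0507). Without control 3, and likewise without resveratrol 3, DESeq2 called Adam19 as well. Adam33, a mesenchymal ADAM known from airway smooth muscle, stood at 2.1, 2.63 and 1.61 CPM in resveratrol corneas, against 3.39, 5.22 and 2.95 CPM in control corneas. It did not overlap, at few counts (-0.87 ± 0.29, DESeq2 adjusted p = 0.0971). Myofibroblast and pericyte markers summed to 1059 to 1259 CPM in resveratrol and 1584 to 2008 CPM in control corneas. Of the 8 markers, 7 were lower in mean and none was at 0. DESeq2 called 5 of them lower, against 4.64% of all genes, and edgeR called 0 after adjustment. The part of these markers in the differences above was not tested. The FPKM ratio of Adam12 to Pdgfrb, a receptor of pericytes and fibroblasts, overlapped between the groups (exact permutation p = 0.70), while that of Adamts16 to Pdgfrb did not, at 0.00714, 0.00874 and 0.0102 in resveratrol corneas, against 0.0301, 0.0148 and 0.0131 in control corneas (exact permutation p = 0.1, the smallest possible).

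The shedding enzymes Adam10 and Adam17 differed from this pattern. Adam10, which cuts Notch receptors and cadherins, stood at 132, 127 and 128 CPM in resveratrol corneas, against 135, 127 and 132 CPM in control corneas. The groups overlapped and differed by less than either spread (-0.025 ± 0.064). Adam17, which releases tumour necrosis factor and ligands of the epidermal growth factor receptor, stood at 134, 121 and 120.0 CPM in resveratrol corneas, against 115, 107 and 100.4 CPM in control corneas. Every resveratrol library was above every control library, by a small margin (0.22 ± 0.083, edgeR adjusted p = 0.231, DESeq2 adjusted p = 0.148), so it passed in neither tool. The FPKM ratio of Adam17 to Adam10 was 0.939, 0.878 and 0.863 in resveratrol corneas, against 0.784, 0.778 and 0.704 in control corneas. It did not overlap between the groups (exact permutation p = 0.1, the smallest possible). The ratio of the inhibitor Timp3 to Adam17 was 0.487, 0.485 and 0.476 in resveratrol corneas, against 0.553, 0.828 and 0.66 in control corneas. It was lower in all resveratrol libraries (exact permutation p = 0.1, the smallest possible), while Timp3 alone overlapped (-0.27 ± 0.13).

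Among the other ADAMs with a protease site, Adam15, the most abundant member, stood at 163, 170.5 and 168 CPM in resveratrol corneas, against 192, 199.6 and 185 CPM in control corneas. The groups did not overlap, for a small difference (-0.20 ± 0.066, edgeR adjusted p = 0.189, DESeq2 adjusted p = 0.14). Adam9 stood at 69.4, 65.3 and 68 CPM in resveratrol corneas, against 66.4, 67.8 and 68.9 CPM in control corneas. All 6 values were within 5 CPM, and the sign of its difference (-0.0022 ± 0.067) changed with the scaling. Adam28, known from lymphocytes, stood at 1.61, 3.54 and 4.21 CPM in resveratrol corneas, against 3.76, 3.94 and 5.15 CPM in control corneas, and the groups overlapped (-0.46 ± 0.36). B cell markers were near 0, at 0.737 to 1.16 CPM summed over 5 genes in resveratrol and 0.68 to 2.47 CPM in control corneas. T cell markers summed to 17.9 to 29.6 CPM in resveratrol and 32.2 to 63.4 CPM in control corneas, and all 8 tested were lower in mean.

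The remaining ADAMs had few counts and overlapped between the groups. Adamdec1, a secreted relative known from macrophages and dendritic cells, stood at 0.382, 0.51 and 0.921 CPM in resveratrol corneas, against 0.517, 0.0816 and 0.563 CPM in control corneas (0.64 ± 0.66). Its highest library was resveratrol 3, although dendritic cell markers summed to 22.6 to 25.5 CPM in resveratrol and 36.5 to 59.1 CPM in control corneas and all 7 tested were lower in mean. Adam22 and Adam23 are receptors without protease activity that are known from neurons. Adam22 stood at 0.901, 0.805 and 0.605 CPM in resveratrol corneas, against 0.776, 0.571 and 0.536 CPM in control corneas (0.30 ± 0.32), all under 1 CPM. Adam23 stood at 0.71, 1.37 and 0.579 CPM in resveratrol corneas, against 2.5, 1.77 and 0.911 CPM in control corneas, with control 3 inside the resveratrol range (-0.96 ± 0.46). Schwann cell and nerve markers summed to 64.4 to 74.9 CPM in resveratrol and 90.4 to 116 CPM in control corneas, where 4 of 6 were lower in mean, and their part was not tested. Adam1a, a sperm gene, stood at 0.519, 0.859 and 1.42 CPM in resveratrol corneas, against 0.172, 0.68 and 1.23 CPM in control corneas (0.42 ± 0.67), and the sign of its difference turned without control 1 (-0.032) and without resveratrol 3.

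Of the ADAMTS-like genes Adamtsl1 was the only one with a higher mean in resveratrol. It stood at 103, 67.2 and 76.6 CPM in resveratrol corneas, against 52.8, 64.3 and 56 CPM in control corneas. The groups did not overlap, narrowly so between resveratrol 2 and control 2 (0.51 ± 0.16, edgeR adjusted p = 0.171, DESeq2 adjusted p = 0.0507). Without resveratrol 2 DESeq2 called it higher. Adamtsl4, known from inherited lens dislocation and from binding fibrillin 1, stood at 25, 25.5 and 27.3 CPM in resveratrol corneas, against 30.7, 32.2 and 33 CPM in control corneas. These groups were tight and apart (-0.30 ± 0.084, edgeR adjusted p = 0.142, DESeq2 adjusted p = 0.0749). Adamtsl5 stood at 20.5, 20.7 and 30.9 CPM in resveratrol corneas, against 19.9, 30.3 and 34.5 CPM in control corneas and overlapped (-0.23 ± 0.24). Adamtsl2 stood at 0.819, 0.215 and 0.395 CPM in resveratrol corneas, against 0.891, 0.381 and 0.911 CPM in control corneas (-0.61 ± 0.55). Adamtsl3 stood at 1.91, 1.64 and 1.87 CPM in resveratrol corneas, against 1.67, 3.24 and 1.05 CPM in control corneas (-0.14 ± 0.39), and both of these low genes overlapped.

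**Figure D4:**
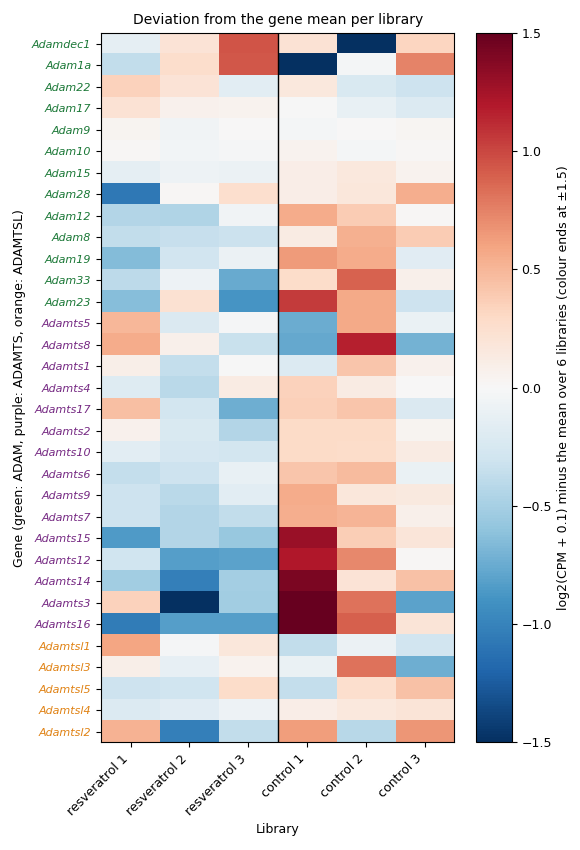
Log2(CPM + 0.1) of each tested member minus its mean over the 6 libraries (colour scale ends at 1.5 either side), resveratrol libraries left of the line. Control 1 holds the highest cells of Adamts14, Adamts15 and Adamts16, which stood there at 10.3, 24.7 and 20.5 CPM.

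The libraries of a group were not alike. Among the 15 members lower at an unadjusted p under 0.05, control 3 was the lowest control library for 12 and control 1 the highest for 10. These 15 were picked by the group difference, and the same counts over all tested genes were not made. On the first principal component of all tested genes the controls had the same order. Controls 1, 2 and 3 lay there at -38.1, -28.8 and -7.46, with the resveratrol libraries at 16.8 to 37.3. Within the libraries whose description ends in Sep (resveratrol 1 and control 1, with no replicate) and those ending in Oct (2 against 2), 25 of 33 members had the same sign of difference, 21 lower and 4 higher, and 8 had opposite signs. The share with the same sign over all tested genes was not counted. Adamts16 differed by -2.7 in the Sep pair and -1.43 in the Oct libraries, Adamts15 by -2.16 and -0.79, Adamts14 by -1.95 and -1.1, and Adamts12 by -1.5 and -1.23. For these 4 the Sep pair thus gave the larger difference. Adam8 differed by -0.49 in the Sep pair and -0.79 in the Oct libraries, Adamts7 by -0.86 and -0.71, and Adam17 by 0.22 and 0.22. Opposite signs included Adamts5 (1.25 and -0.39) and Adamts8 (1.36 and -0.66).

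**Figure D5:**
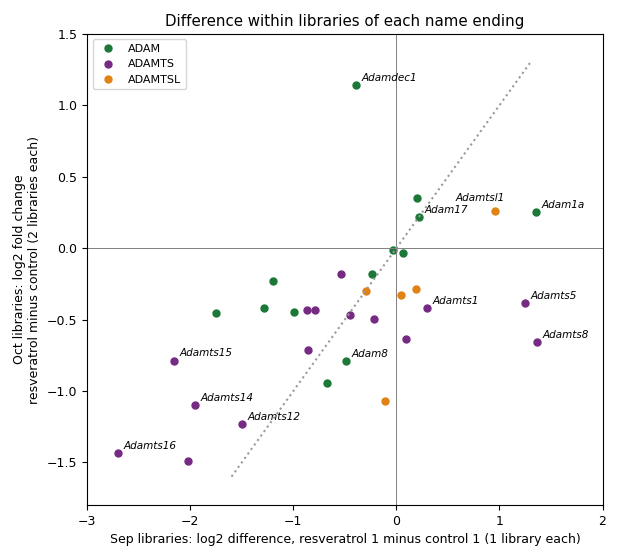
Log2 difference, resveratrol minus control, of each tested member in the Sep pair (horizontal, 1 library each) and in the Oct libraries (vertical, 2 libraries each); the dotted line marks equal values. Adamts12, Adamts14, Adamts15 and Adamts16 lie at lower left, whereas Adamts1, Adamts5 and Adamts8 lie at lower right, with opposite signs.

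Genes that work with these proteases were counted from lists, of which none passed edgeR's adjustment. Of 6 tested inhibitors DESeq2 called 1 lower, Timp2, at 379.8, 451 and 428 CPM in resveratrol corneas, against 581, 649 and 522 CPM in control corneas (-0.48 ± 0.11, DESeq2 adjusted p = 0.00831). A2m, the broad protease inhibitor, was the most abundant and overlapped (0.27 ± 0.34). Of 10 tested partners that carry or anchor ADAMs DESeq2 called 0. In edgeR 0 of them reached an unadjusted p under 0.05, against 19.6% of all tested genes. Of these Rhbdf1, which carries ADAM17 to the cell surface, differed by -0.031 ± 0.11, and Sh3pxd2a, an adaptor of invasive cell protrusions that binds ADAM tails, by 0.00043 ± 0.078. Of 4 convertases that remove the inhibitory prodomain DESeq2 called 0 as well, with Furin at -0.087 ± 0.092 and Pcsk6 at 0.27 ± 0.18. In edgeR 0 of the 4 reached an unadjusted p under 0.05, against the same 19.6%. A count of 0 in lists this short does not show that they were unchanged. The 28 tested substrates of shedding had 11 lower and 17 higher means (median log2 fold change 0.081). At an unadjusted p under 0.05 in edgeR, 5 of the 28 were lower and 3 higher, against 11.7% and 7.84% of all tested genes. The most abundant substrates, App, the amyloid precursor, and Sdc1, syndecan 1, differed by 0.14 ± 0.12 and 0.20 ± 0.10. Tnf, the cytokine released by ADAM17, differed by -0.78 ± 0.26 (DESeq2 adjusted p = 0.169). DESeq2 called 3 of the 28 lower, the adhesion proteins Ncam1 (-0.70 ± 0.090), Cdh5 (-0.74 ± 0.20) and Cdh2 (-1.27 ± 0.28). It called 2 higher, Il6r, the interleukin 6 receptor (0.58 ± 0.11), and Sdc4, a cell surface proteoglycan (0.53 ± 0.14). Of all genes with an adjusted p, DESeq2 called 4.64% lower and 2.23% higher. These shares also stand beside its counts for inhibitors, partners and convertases above. Il6r stood at 55.8, 50.8 and 45.1 CPM in resveratrol corneas, against 30.7, 35.5 and 35 CPM in control corneas, with every resveratrol library above every control library. Cdh5 is also a marker of vessel endothelium, whose 10 markers summed to 341 to 437 CPM in resveratrol and 531 to 711 CPM in control corneas, with 10 of 10 lower in mean and none at 0. The FPKM ratio of Adamts9 to Cdh5 overlapped between the groups (exact permutation p = 0.80). Keratocyte markers, of the resident stromal cells, summed to 14143 to 19468 CPM in resveratrol and 14849 to 16759 CPM in control corneas and so overlapped. Of the 7 tested, 6 were lower and 1 higher in mean (median log2 fold change -0.19), and DESeq2 called 1 lower.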

How the data were processed

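RNA from corneas was sequenced as 150 bp paired-end reads, per the labels' protocols. The authors deposited raw gene counts per library, and FPKM values of the same 17771 genes in a second table, per the file headers. Their single-library FPKM files equalled the FPKM table in 6 of 6 cases. The submitters' processing notes name build mRatBN7.2, R 3.2.0 and DESeq2; the sources used here name no aligner, counter, annotation or strand setting, so genes with similar copies or overlapping neighbours are uncertain. A header of the count table lacks 1 separator, so the merged name was split into the 2 sample names it joins, and columns were read by their position under the names.

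Counts were filtered (filterByExpr), TMM-scaled and tested over all 14213 genes with edgeR 4.0.16 (quasi-likelihood, threshold 0.05); standard errors come from limma 3.58.1 on log2 CPM (prior count 2). DESeq2 1.42.0, scaling, filter, voom, FPKM, block, covariate and leave-one-out fits were alternatives. The code was tested on simulated counts. Values in the Sep pair are log2 ratios of CPM + 0.05. Values per library are given for members with an unadjusted edgeR p or a DESeq2 adjusted p under 0.05, the 2 most abundant of each role and 9 well-known members; of partner lists, genes with an unadjusted p under 0.05 and the 2 most abundant may be named; Fbn1, Timp3, Cd68, Pdgfrb and untested list genes were named after their values were seen. Totals of 35068936 to 37460756 counts limit the precision of members with few counts. For others the spread between libraries mattered as well. Adamts12, with 7071 counts in all, had a standard error of 0.29, and Adamts10, with 4807 counts, one of 0.095. Members and lists were chosen with earlier results of these data known. Start regions are from RefSeq (GRCr8); all 42 symbols matched and 30 had one.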

Additional observations from a re-analysis of the deposited data

How the results depend on the processing

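With edgeR's quasi-likelihood test 0 genes and 0 members passed under every scaling, filter and covariate tried; leaving out 1 library gave 0 to 21 genes and 0 to 1 members. DESeq2 called 1007 genes and 9 members. In DESeq2 fits chosen after seeing the data, leaving out resveratrol 1, 2 or 3 gave 530, 642 and 826 genes with 8, 7 and 10 members, leaving out control 1, 2 or 3 gave 623, 390 and 1041 genes with 7, 6 and 11 members, the Oct libraries alone gave 404 and 5, and the replicate number as a block gave 672 and 8. Members higher at an unadjusted p under 0.05 numbered 1 with upper-quartile factors or in the Oct libraries, and 1 to 2 without 1 library. Members lower numbered 10 to 17 without 1 library. The ADAM median log2 fold change was -0.55 with a stricter filter, which tested fewer members, and the ADAMTS median was -0.37 on log2(FPKM + 1), a scale that shrinks low genes. Same-numbered libraries did not deviate together from their group means (correlations -0.0225, -0.0123 and -0.00442), and no library correlated best with its own. The value of -0.00442 belongs to the libraries numbered 1, which both carry the Sep ending. A low correlation therefore cannot show that same-numbered libraries share nothing else. With the replicate block edgeR gave 14 members lower and 2 higher at an unadjusted p under 0.05, 0 of them adjusted. DESeq2 with the block called Adamts2 and not Adamts9 (0.077) or Adamts10 (0.0607, DESeq2 adjusted p).

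In the alternative fits, signs turned in 6 members, each with a difference below its standard error. Adam9 was at 0.010 with DESeq2 size factors, 0.0027 with no filter, 0.013 in DESeq2, 0.013 on log2(FPKM + 1), 0.014 on log2(FPKM + 0.1) and -0.014 to 0.023 without 1 library. Adamts8 was at 0.21 in voom, 0.20 with the replicate block, 0.021 on log2(FPKM + 1), 0.17 on log2(FPKM + 0.1) and -0.38 to 0.94 without 1 library. Adamts5 was at -0.39 in the Oct libraries and -0.15 to 0.51 without 1 library. Adamtsl3 was at 0.017 in voom, 0.0045 with the replicate block and -0.44 to 0.41 without 1 library. Adam1a and Adam10 turned only without 1 library (Adam1a -0.032 to 1.12, Adam10 -0.048 to 0.0014). The cause was not tested. Depth limits members under about 1 CPM.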
